A study of Homo sapiens with 4 samples.

Results

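The genes described here encode plasma proteins that the liver secretes in large amounts. They are the carriers ALB, AFP, TTR and RBP4, the acute-phase proteins HP and ORM1, the protease inhibitors and related proteins SERPINA1, AMBP and AHSG, and the adhesion protein VTN. Members were chosen by gene name, and 8 of the 10 have a row among the 8727 genes of the authors' deposited table. ALB and VTN have no row, so they have no value here and their direction is not known. Polyadenylated RNA was sequenced from HepG2, a human liver tumour line labelled as hepatoblastoma. Control cells received the solvent DMSO (2 libraries) and treated cells 20 µM isoginkgetin, a plant biflavonoid known to inhibit pre-mRNA splicing, over 24 h (2 libraries). The series title concerns autophagic cell death. The labels give no time for the DMSO cells. They do not say whether replicates were separate cultures, and the p-values may therefore reflect technical spread alone. HepG2 is a single tumour line and stands for normal hepatocytes only in part.

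Hepatocytes make most proteins of the blood plasma and release them through the endoplasmic reticulum and Golgi without storing them. Transcription of these genes in liver rests on factors such as HNF4, the FOXA proteins and C/EBP. During inflammation, signals such as interleukin-6 raise the positive acute-phase proteins, among them HP, ORM1 and SERPINA1, while the negative ones, among them ALB, TTR, RBP4 and AHSG, fall.

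The authors' comparison gives for each gene its level (normalized counts averaged over the 4 libraries), the log2 fold change and its standard error (SE), and an adjusted p-value. Only genes with an adjusted p under 0.05 are held, and single libraries are not analysed here, so it cannot be shown whether the groups overlap. A gene without a row may have been untested or may have missed the threshold. A negative log2 fold change is called lower and a positive one higher, taking DMSO as the denominator. No header names the denominator, and every direction turns if the order was the reverse. All 10 listed hepatocyte markers have a row in the authors' deposited table, at means from 1281 (SERPINC1) to 157429 (APOB). A row requires an adjusted p under 0.05, so counts of markers with a row cannot show the cell type. Of these 10, 8 were lower and 2 higher, with a median log2 fold change of −0.54, and their part in the results was not tested. Of 18 listed markers of fibroblasts, leukocytes and endothelium the authors' deposited table holds 5, all lower. Their means there were 60.2 for PDGFRB, 463 for ACTA2, 129 for PECAM1, 14.2 for CLDN5 and 15328 for LYZ, and the part of these was likewise not tested.

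The plasma protein genes did not move as a block. By the deposited estimates, AHSG, HP and AFP fell by 2-fold or more, and TTR and SERPINA1 fell by less. RBP4, ORM1 and AMBP rose by at most 31.0%. The estimates of AFP and HP lay within their SE of a 2-fold fall, and the order of the lower genes was not tested. In all, 5 of the 10 were lower and 3 were higher. Among the 20024 genes tested, 21.1% were called lower, 22.4% higher and 43.6% either way. Strongly expressed genes pass a threshold more easily than weak ones, and most of the 10 are strongly expressed in liver. An adjusted p under 0.001 left 4 lower genes (14.7% of all tested) and 3 higher (14.5%), and Bonferroni 4 lower (11%) and 1 higher (10.7%). A change of 1.5-fold left 5 lower (14%) and 0 higher (12.2%), and one of 2-fold 3 lower (7.43%) and 0 higher (6.26%). The median log2 fold change of the 8 genes with a row was −0.72, beside 0.21 over all genes in the authors' deposited table. Of the genes with means of 10000 or more, 81 of 248 in the table were lower with a median of 0.33, while 3 of the 5 plasma protein genes at that level (AHSG, SERPINA1 and AFP) were lower. Centring the fold changes on the table's median of 0.21 turned AMBP to −0.027, and kept the direction of the other 7. It left ORM1 at 0.058, less than its SE of 0.07, and RBP4 at 0.18.

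**Figure D1:**
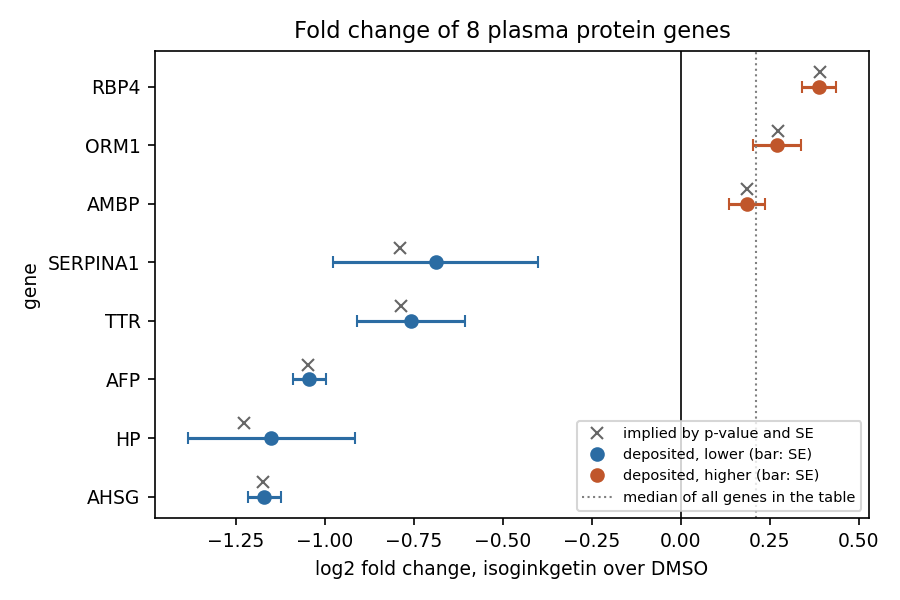
Log2 fold change of the 8 plasma protein genes with a row in the authors' deposited table, isoginkgetin over DMSO. Points are deposited fold changes with bars of 1 SE, crosses are the values implied by the p-value and SE, and the dotted line is the median of all genes in the table. AHSG, HP and AFP sit below −1, TTR and SERPINA1 between −0.76 and −0.69, and AMBP, ORM1 and RBP4 between 0.19 and 0.39.

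The regions before the start sites of 3 genes that fell and the 3 that rose are shown because the liver factors named above bind close to the start in this class of gene. RefSeq (GRCh38.p14) gave windows for 8 of the 10 genes, not for TTR and HP. Each sequence covers the 250 bases before the start, 5′ to 3′ on the gene's own strand. RefSeq lists 3 starts for RBP4 and 2 for SERPINA1, and the most downstream is shown. Capitals mark 2 motifs searched on both strands: the C/EBP motif TTNNGNAAT and the TATA box TATAAA.
AFP (chr4:73435971-73436220, plus strand): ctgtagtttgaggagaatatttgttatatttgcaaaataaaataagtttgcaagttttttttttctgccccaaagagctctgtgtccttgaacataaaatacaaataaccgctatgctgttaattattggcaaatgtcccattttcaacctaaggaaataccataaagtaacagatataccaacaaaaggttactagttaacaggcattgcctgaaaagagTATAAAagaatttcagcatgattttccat
AHSG (chr3:186612810-186613059, plus strand): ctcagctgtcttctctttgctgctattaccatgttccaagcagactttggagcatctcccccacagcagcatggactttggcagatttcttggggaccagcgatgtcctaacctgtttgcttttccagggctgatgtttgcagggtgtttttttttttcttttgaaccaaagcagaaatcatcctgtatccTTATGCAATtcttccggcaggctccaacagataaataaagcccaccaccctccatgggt
SERPINA1 (chr14:94388603-94388852, minus strand): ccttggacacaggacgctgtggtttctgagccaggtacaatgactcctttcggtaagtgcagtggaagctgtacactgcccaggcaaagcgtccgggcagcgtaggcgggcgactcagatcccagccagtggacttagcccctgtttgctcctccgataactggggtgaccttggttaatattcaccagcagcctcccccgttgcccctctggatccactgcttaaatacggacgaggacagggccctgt
RBP4 (chr10:93601236-93601485, minus strand): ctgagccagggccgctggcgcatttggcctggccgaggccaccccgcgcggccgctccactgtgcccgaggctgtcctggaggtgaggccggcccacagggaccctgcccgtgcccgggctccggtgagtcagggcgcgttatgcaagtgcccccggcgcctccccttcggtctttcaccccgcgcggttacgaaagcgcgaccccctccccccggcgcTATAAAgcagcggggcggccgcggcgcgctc
AMBP (chr9:114078301-114078550, minus strand): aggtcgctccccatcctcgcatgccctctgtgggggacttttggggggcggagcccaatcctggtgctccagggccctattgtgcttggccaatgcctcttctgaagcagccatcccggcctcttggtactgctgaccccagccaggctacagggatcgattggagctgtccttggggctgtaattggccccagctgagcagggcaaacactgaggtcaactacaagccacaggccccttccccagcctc
ORM1 (chr9:114322848-114323097, plus strand): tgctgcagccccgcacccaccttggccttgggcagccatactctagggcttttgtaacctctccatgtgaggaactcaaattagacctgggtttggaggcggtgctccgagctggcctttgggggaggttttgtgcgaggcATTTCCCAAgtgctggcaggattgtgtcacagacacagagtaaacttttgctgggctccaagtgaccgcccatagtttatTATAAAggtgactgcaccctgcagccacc
Counting only the most downstream window of each gene, the C/EBP motif was in AHSG, ORM1 and ALB. The TATA box was in AFP, ORM1 and RBP4. None of these matches overlapped another. Another RBP4 window, further upstream and not shown, held a C/EBP match and TATA box matches that overlapped each other. Of 35116 RefSeq windows of the same length, with every listed start included, 9.85% held the C/EBP motif and 10.7% the TATA box. The windows of AMBP and SERPINA1 held no match. The window of RBP4 was the richest in G and C of the 6, at 74.8%, and that of AFP the poorest, at 31.6%. A match is a run of letters, and binding was not measured.

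Among the carriers, the fetal relative of albumin fell and the retinol carrier rose. AFP encodes alpha-fetoprotein, which the fetal liver and many liver tumours secrete. Its mean normalized count was 31202 and its log2 fold change −1.04 (adjusted p 2.81e-109, SE 0.05) per the authors' deposited table. On the linear scale AFP fell by 51.5%. The deposited p-value of AFP ranked 63 of 8727 and 39 among the lower genes. The mean and fold change of AFP together imply 42014 normalized counts in DMSO and 20391 with isoginkgetin, if the fold change is the ratio of the group means. ALB, AFM and GC, the albumin family genes on the same chromosome 4, have no row.

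RBP4 carries retinol from the liver, and in plasma it travels bound to TTR, transthyretin, which also carries thyroid hormone. RBP4 had a mean of 16534 and rose by 0.39 on the log2 scale (SE 0.05, adjusted p 5.57e-15) per the authors' deposited table, from an implied 14315 to 18752 normalized counts. TTR had a mean of 442 and a log2 fold change of −0.76 (adjusted p 1.24e-06, SE 0.15) there, from an implied 556 to 329. These carriers of one plasma complex therefore moved apart, by 1.15 on the log2 scale with an SE of 0.16 if their errors are independent. The retinol receptor STRA6 and LRAT, the enzyme that esterifies retinol, have no row. The libraries carry no strand, and RBP4 lies across FFAR4, a fatty acid receptor gene on the opposite strand without a row, but their exons share 0 bases in GENCODE 29.

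The acute-phase pair also split. ORM1 encodes orosomucoid, a carrier of basic drugs that rises in inflammation. It had a mean of 3060 and a log2 fold change of 0.27 (adjusted p 0.000231, SE 0.07) per the authors' deposited table, an increase of 20.7%. After centring ORM1 stood at 0.058, less than its SE. Its near-identical neighbour ORM2 has no row, and reads of the pair may be divided between them, which makes the value of ORM1 uncertain.

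HP, haptoglobin, binds free haemoglobin. Its mean was only 240 and its log2 fold change −1.15 (SE 0.24, adjusted p 9.91e-07) per the authors' deposited table. ORM1 lay 1.42 above HP on the log2 scale (SE 0.24 if errors are independent). HPR, the haptoglobin-related copy next to HP, fell further, at −3.88 (SE 0.61) with a mean of 47.1 per the authors' deposited table. Reads of such similar copies may be divided between them, so the values of HP and HPR are uncertain. HP also lies within the span of TXNL4B, a splicing-related gene on the opposite strand, which rose by 1.13 (SE 0.14, mean 613) per the authors' deposited table. Their exons share 0 bases in GENCODE 29.

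SERPINA1, alpha-1-antitrypsin, is the main inhibitor of neutrophil elastase. It had the second highest mean of the 8 genes, 53061 per the authors' deposited table. Its log2 fold change there was −0.69 with an SE of 0.29 and an adjusted p of 0.0171. On the linear scale SERPINA1 fell by 37.9%. This SE was the largest among the 681 genes of the authors' deposited table with a mean of at least 5000, whose median SE was 0.0557. Among the 200 genes nearest in mean, none had an SE as large, and that of SERPINA1 was 5.84 times their median. Read as an unshrunken difference, the SE corresponds to a coefficient of variation between libraries of 20.1%, against 3.19% for AHSG. The deposited fold change of SERPINA1 looks shrunken, so its coefficient is approximate. The call for SERPINA1 ended at an adjusted p under 0.001, and the library behind the spread is not known.

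**Figure D2:**
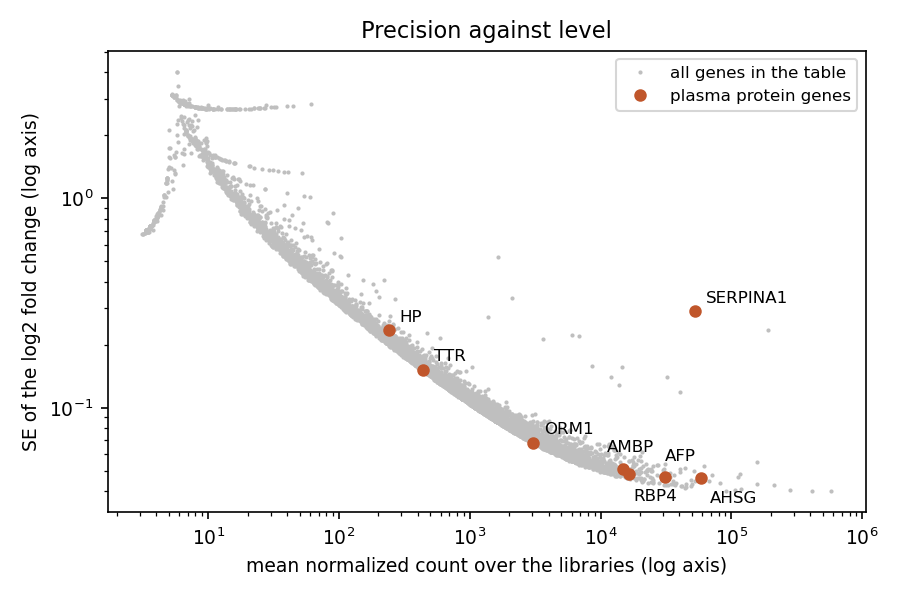
SE of the log2 fold change against the mean normalized count for all genes of the authors' deposited table (grey) and the 8 plasma protein genes (orange), both axes logarithmic. SERPINA1 lies far above the band of genes at its level, with an SE of 0.29, and the other 7 lie within the band.

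The relatives of SERPINA1 on chromosome 14 were lower as well. GENCODE 29 places 9 protein-coding SERPINA genes there, and all 8 with a row were lower, between −3.57 and −0.69 with a median of −1.74. SERPINA1 had the smallest change of the 8. For all genes tested the shares were 21.1% lower and 22.4% higher, and of all genes with a row 48.5% were lower. SERPINA11 was at −3.57 (SE 0.16), SERPINA4, the inhibitor of tissue kallikrein, at −2.92 (SE 0.29) and SERPINA3, alpha-1-antichymotrypsin, at −1.93 (SE 0.33) per the authors' deposited table. SERPINA6, the cortisol carrier, stood at −1.55 (SE 0.09), SERPINA10, the inhibitor of factor X that acts with protein Z, at −1.54 (SE 0.14) and SERPINA5, the protein C inhibitor, at −1.42 (SE 0.06) per the authors' deposited table. SERPINA12 was at −3.31 (SE 0.68) there at a mean of only 36.9. SERPINA9 has no row.

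**Figure D3:**
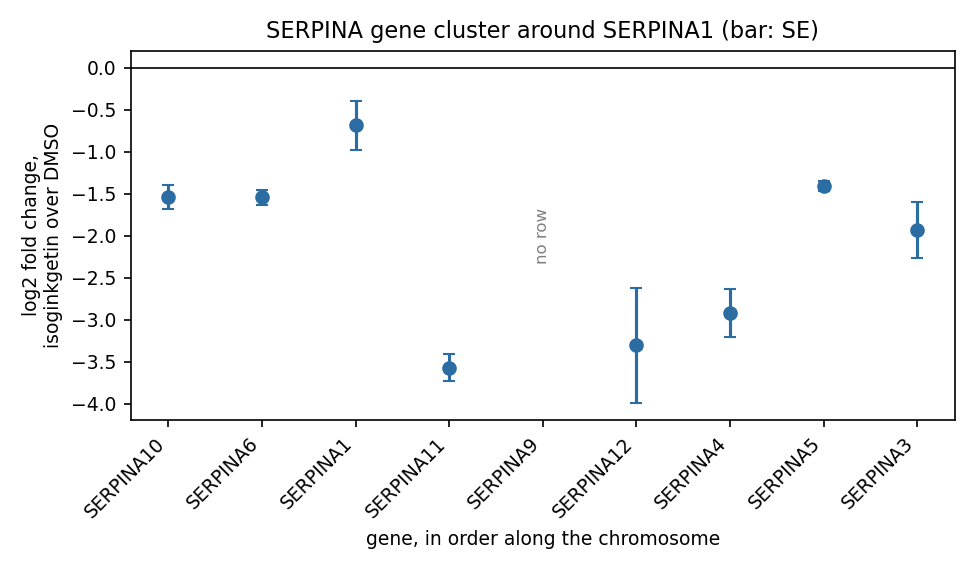
Log2 fold change with bars of 1 SE for the SERPINA genes around SERPINA1, in order along chromosome 14. All 8 genes with a row lie below 0, SERPINA1 highest at −0.69 and SERPINA11 lowest at −3.57; SERPINA9 has no row.

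AHSG, fetuin-A, keeps calcium phosphate from precipitating in blood and belongs to the cystatin family of protease inhibitors. It had the highest mean of the 8, 58728, and a log2 fold change of −1.17 (adjusted p 1.05e-140, SE 0.05) per the authors' deposited table. The deposited p-value of AHSG ranked 39 of 8727. The implied level fell by 55.5%, from 81310 to 36147 normalized counts. AHSG lay 0.13 below AFP on the log2 scale (SE 0.07 if errors are independent), a difference less than 2 SE. FETUB, HRG and KNG1, the related genes beside AHSG on chromosome 3, have no row.

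AMBP encodes a precursor that is cut into alpha-1-microglobulin, a haem-binding carrier, and bikunin, a trypsin inhibitor. Its mean was 14963 and its log2 fold change 0.19 (SE 0.05, adjusted p 0.000910) per the authors' deposited table, which is an increase of 13.8% and turns to −0.027 after centring. Bikunin is coupled to heavy chains encoded by ITIH genes, and of these ITIH2 and ITIH3 were lower. ITIH2, with a mean of 31592, was at −0.79 (SE 0.04) and ITIH3 at −0.89 (SE 0.08) per the authors' deposited table. AMBP thus lay 0.97 above ITIH2 (SE 0.07) and 1.08 above ITIH3 (SE 0.10) on the log2 scale if errors are independent, differences that centring leaves as they are. ITIH1 has no row, and neither has ITIH4, which was listed among the acute-phase proteins.

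VTN, vitronectin, binds integrins on the cell surface. VTN has no row, but subunits of a receptor for it do. The integrin genes ITGAV and ITGB5, whose products together form that receptor, were at −0.91 (SE 0.07) and −0.91 (SE 0.06) per the authors' deposited table. In GENCODE 29 the exons of VTN share 329 bases with a neighbouring gene model on the same strand, AC002094.3, which has no row either.

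Per kilobase of annotated exon, AHSG was the most abundant of the 8 at a mean of 34264 normalized counts per kb. SERPINA1 (13137), AFP (12561), RBP4 (11410) and AMBP (10435) lay close to each other on that scale, and ORM1 followed at 3815. TTR (339) and HP (131) were far less abundant per kb. No error is held for these means, so the order of the close ones is not tested. With the implied levels summed over the 8 genes, normalized counts fell by 38.5%, from 220786 in DMSO to 135676 with isoginkgetin. Without SERPINA1 the sum fell by 38.8%. That sum is carried mostly by AHSG, SERPINA1 and AFP. In bulk RNA, fewer cells of a kind and less RNA per cell cannot be told apart.

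**Figure D4:**
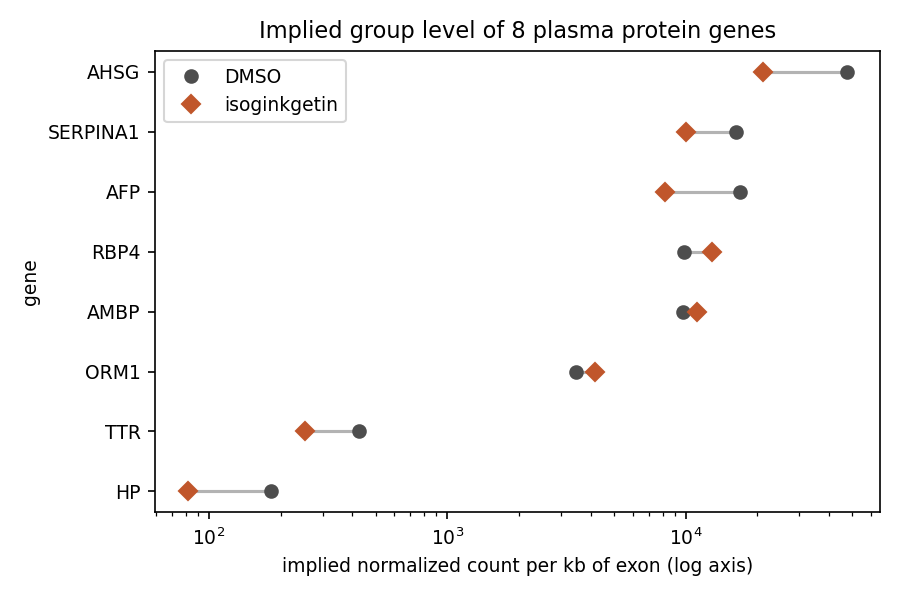
Normalized count per kb of exon implied for DMSO (circles) and isoginkgetin (diamonds) by the authors' mean and fold change, on a log axis, ordered by mean. AHSG has the highest level in both groups, and HP the lowest. Group names assume that DMSO is the denominator of the fold change, and would swap otherwise.

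Most other plasma protein genes with a row were lower. Over 3 further lists with 56 genes, 24 have a row in the authors' deposited table and 32 have none. Of the 24, 20 were lower and 4 higher, with a median of −0.83. They include HPR, ITIH2, ITIH3, SERPINA3, SERPINA4, SERPINA5, SERPINA6 and SERPINA10, already given above as lower. TF and SERPINC1 are also among the hepatocyte markers counted above. Among all genes tested, 21.1% were called lower and 22.4% higher. The share to set beside genes with a row is that of the whole deposited table, where 48.5% were lower. Transport proteins gave 6 lower and 3 higher of 19 listed, acute-phase proteins 5 lower and 0 higher of 16, and inhibitors and their kin 9 lower and 1 higher of 21. Among the transport proteins CP, the copper carrier, was at −4.33 (SE 0.17), SERPINA7, the thyroxine carrier, at −2.40 (SE 0.09) and TF, transferrin, at −0.71 (SE 0.04) per the authors' deposited table. The sex hormone carrier SHBG was at 0.93 (SE 0.32), the selenium carrier SELENOP, listed under its older symbol, at 0.16 (SE 0.06, below 0 with centring), and LCN2 at 1.66 (SE 1.58, mean 11.3) per the authors' deposited table. SELENOP was picked after its value was seen. Of the plasma carriers of thyroid hormone, TTR and SERPINA7 were both lower, and ALB has no row.

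Among the other acute-phase proteins, LRG1 was at −0.88 (SE 0.11), FGL1 at −0.63 (SE 0.07) and HAMP, the iron hormone hepcidin, at −0.56 (SE 0.14) per the authors' deposited table. The classic responders CRP, SAA1 and SAA2 have no row. Among the inhibitors, A2M, a broad protease trap, was at −1.37 (SE 0.04) with a mean of 50081, and SERPIND1, heparin cofactor II, at −1.88 (SE 0.07) per the authors' deposited table. SERPINC1, antithrombin, was the exception at 1.06 (SE 0.10) there.

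**Figure D5:**
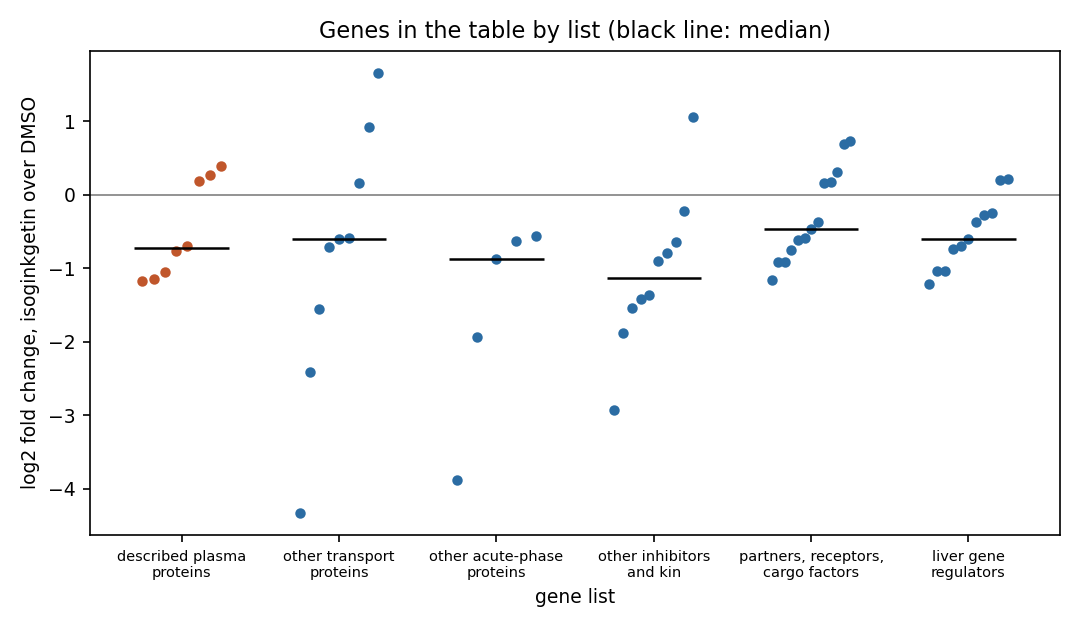
Log2 fold change of every listed gene with a row in the authors' deposited table, by list, with a line at the median. The described plasma proteins (orange) reach from −1.17 to 0.39, the other acute-phase proteins lie below 0 throughout, and CP marks the lowest point at −4.33.

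Of 22 listed partners, receptors and secretory pathway factors, 13 have a row, with 8 lower and 5 higher. Of all genes tested 21.1% were lower and 22.4% higher, and of all genes with a row 48.5% were lower. The lower ones include FCGRT, the receptor that recycles albumin, at −0.61 (SE 0.08), ASGR1, which clears desialylated plasma proteins, at −0.58 (SE 0.06) and LRP1, the receptor of A2M complexes, at −0.75 (SE 0.05) per the authors' deposited table. The 5 higher ones are LMAN1, MCFD2, SURF4, FURIN and SEL1L. LMAN1, a cargo receptor for SERPINA1 in the early secretory pathway, rose by 0.73 (SE 0.05), its partner MCFD2 by 0.16 (SE 0.05) and SURF4, another cargo receptor, by 0.70 (SE 0.05) per the authors' deposited table. FURIN, a processing protease, was at 0.32 (SE 0.06) and SEL1L, part of the machinery that discards misfolded proteins, at 0.18 (SE 0.07) there. With centring, MCFD2 and SEL1L fall below 0. FCGRT, ASGR1, MCFD2, FURIN and SEL1L were picked after their values were seen.

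Of 24 listed regulators of liver genes and of the acute-phase response, 11 have a row and 13 have none. The 11 comprise 9 lower and 2 higher, with a median of −0.60. The shares over all genes tested were 21.1% lower and 22.4% higher, and of all genes with a row 48.5% were lower. PROX1 was at −1.03 (SE 0.07), ONECUT1 at −1.22 (SE 0.24), FOXA3 at −0.74 (SE 0.13) and the bile acid receptor NR1H4 at −0.60 (SE 0.12) per the authors' deposited table. HNF4A, also among the hepatocyte markers counted above, was at −0.37 (SE 0.06) there. ZHX2, a repressor of AFP in the adult liver, was lower too, at −0.70 (SE 0.09), beside the lower AFP per the authors' deposited table. The interleukin-6 pathway gave IL6R at −0.27 (SE 0.11), JAK1 at −0.24 (SE 0.07) and STAT3 at 0.21 (SE 0.06) per the authors' deposited table. STAT3 and FOXA1, at 0.20 (SE 0.08) there, fall just below 0 with centring. These 3 pathway genes, HNF4A and FOXA1 were picked after their values were seen. CEBPA, CEBPB and CEBPD have no row. Whether any of these regulators bears on the plasma protein genes was not tested.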

How the data were processed

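Values come from the authors' deposited table of the comparison between 2 isoginkgetin and 2 DMSO libraries. Tools named in the submitters' processing notes are STAR (2.7.0) and featureCounts, and hg19 and mm10 are the builds, with no roles stated; per the labels' protocols the libraries were poly(A)-selected and non-directional. Not given in the sources used here are which build and annotation served, the test's version and each library's depth. The mean deposited by the authors is a signal, the scaled counts averaged over libraries. The authors' deposited fold change and SE are on the log2 scale. The fold changes look shrunken towards 0 for genes with a large SE, which are weak genes and also SERPINA1. The p-values the authors deposited, raw and adjusted (DESeq2 style columns per the file headers), imply 20024 tests (adjusted p times rank over p).

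Group levels were computed from the mean and fold change. Exon lengths are unions over GENCODE 29 basic transcripts. Symbols were matched directly or through RefSeq synonyms, which added 1 gene. Python 3.11.15, pandas 2.3.3 and scipy 1.17.1 were used, and the recovery of the number of tests was tested on simulated data. The planned threshold on adjusted p was 0.05, with alternatives of 0.001, Bonferroni, 1.5-fold, 2-fold, a mean of at least 100, centring and fold changes implied by p. All 10 genes are named, with up to 6 genes with a row from each of 5 further lists (neighbours, and genes picked after their values were seen, are said to be so). Members and lists were chosen with earlier results of these data known, and lists were not tested. Some listed genes enter the counts but are not reported by name here.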

Additional observations from a re-analysis of the deposited data

How the results depend on the processing

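No paired analysis was possible because the deposited table holds no value per library, and for the same reason leaving out replicates and a second normalization were not run. Of the 8 plasma protein genes, SERPINA1 left the calls at an adjusted p under 0.001, and SERPINA1, AMBP and ORM1 with Bonferroni, which kept 1 higher gene, RBP4. At 1.5-fold 0 of the higher genes were left and all 5 lower ones; at 2-fold 3 lower (AHSG, HP and AFP) and 0 higher. Centring on the table's median turned AMBP to −0.027 and left ORM1 at 0.058, less than its SE. Fold changes implied by the p-value take their sign from the deposited fold change, so they could not test the directions. In size SERPINA1 moved most, to −0.79. Among the further lists, an adjusted p under 0.001 and Bonferroni each left 0 higher transport genes, 3 higher partners and 0 higher regulators. At 1.5-fold 5 lower and 2 higher partners and 0 higher regulators were left. At 2-fold there were 3 lower and 1 higher transport genes, 2 lower acute-phase genes, 5 lower inhibitors, 1 lower and 0 higher partners, and 3 lower and 0 higher regulators. Centring left 3 higher partners and 0 higher regulators. Centring turned the signs of small positive values and removed no gene, while the other rules admit fewer genes; beyond this the cause was not tested. The other 49 counts stayed within 1.5 times of the main count. Depth per library is unknown, and the SEs of HP (0.24) and TTR (0.15) show the coarser precision at low means.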

Other observations

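Large SEs at high expression were shared by few genes. Of the 681 genes with a mean of at least 5000 per the authors' deposited table, 10 had an SE over 0.1. After SERPINA1 these were the ferritin light chain gene FTL (SE 0.23, mean 191634), the annexin ANXA4 (SE 0.22), the metallothionein MT2A (SE 0.22), the ribosomal protein genes RPS21 (SE 0.16) and RPLP2 (SE 0.16), the ferritin heavy chain gene FTH1 (SE 0.14), the nuclear non-coding RNA MALAT1 (SE 0.14), the growth factor gene IGF2 (SE 0.13) and HMGA1 (SE 0.12) per the authors' deposited table. These genes were singled out after their values were seen. SERPINA1, ANXA4 and IGF2 were lower and the other 7 higher. Both ferritin chains are on this list, with log2 fold changes of 0.93 for FTL and 0.83 for FTH1 per the authors' deposited table.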
